A study of Mus musculus with 6 samples.

Results

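Solute carriers are the membrane proteins that move amino acids, sugars, ions, metals, vitamins, drugs and metabolites across the plasma membrane and the membranes of organelles, and they were examined here in brain RNA from amyloid-forming mice with and without a loss of *Abcc1*. The group was taken as every gene whose single annotated symbol starts with Slc or Slco followed by a digit, apart from *Slc4a1* and *Slc38a9*. This gave 98 of the 5017 genes tested, read by 1177 of 58919 probe sets and spread over 35 carrier families. They lay on chromosomes 1 (21 genes), 10 (22), 11 (31), 12 (10) and 13 (14). The table analysed here holds 65535 features, and genes outside it, carriers and markers alike, were not analysed here, so a gene is called measured below where that table names it.

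Total RNA of mouse brain was hybridised to 6 arrays, 3 labelled as controls of the genotype APPPS1-FVB and 3 labelled as knockouts of the genotype APPPS1-FVBxABCC1. All 6 samples therefore carry APPPS1, a pair of transgenes for mutant human APP and presenilin 1 driven by the *Thy1* promoter of neurons, which lead to amyloid plaques, and what separates the groups is the cross to the line lacking *Abcc1*, the gene of an ATP-driven exporter of glutathione conjugates and leukotriene C4. The labels give no age, sex or brain region, nor whether each array holds RNA of a different mouse, so the spread behind every p-value here may be technical. *Abcc1* itself was not analysed here, so the labels could not be checked against it.

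Unlike ATP-binding cassette pumps such as *Abcc1*, solute carriers use no ATP of their own: they let a substrate run down its gradient or couple it to sodium, protons or another ion. In brain they clear transmitters from the synapse, load vesicles, bring glucose, lactate, thiamine and amino acids across the blood-brain barrier, remove organic ions, and set the pH, chloride and metal content of cells. Families are numbered by sequence, so that, for example, Slc6 holds the sodium-coupled transmitter carriers, Slc16 the monocarboxylate carriers, Slc25 the carriers of the inner mitochondrial membrane and Slco the organic anion carriers. Each carrier was assigned to a role by its family number, which also places the renal phosphate carriers of family Slc17 beside the vesicular glutamate carriers, and the scaffold gene *Slc9a3r1*, which is no carrier, beside the sodium-proton exchangers.

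Signals are log2 values, and a gene was read in 2 ways: as the mean over all its probe sets (2 to 27 per carrier, median 12) and at its brightest probe set. The labelled tissue was checked on the markers that were measured. All 5 measured neuronal, 7 astrocytic and 2 microglial markers, and the 1 oligodendrocyte marker, *Cnp*, lay above the level under which 95% of 154 olfactory receptor genes fell (5.08 by the mean), a level taken as that of genes silent in brain. Of 5 kidney and gut genes 2 lay above it by the mean, *Slc34a1* and *Lct*, and 4 lay above the corresponding level of the brightest probe sets, which was 5.19. By these levels 68 of the 98 carriers were above background by the mean and 93 by the brightest probe set. Among the 30 that were not, by the mean, were carriers known from kidney, gut and testis, such as *Slc6a19*, *Slc26a3*, *Slc17a2* and *Slco6d1*. Within groups the arrays spread about a carrier's mean by a median SD of 0.080, close to the 0.078 of all genes, and 1 carrier, *Slc11a1*, stood apart with 0.48.

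The comparison asked which carriers differ between amyloid-forming mice with and without *Abcc1*, and none passed the test. With limma and Benjamini-Hochberg adjustment over all genes, 0 of 98 carriers had an adjusted p below 0.05 by the mean of their probe sets, where 0% of all genes did, and 0 of 98 by the brightest probe set, where again 0% of all genes did. The smallest adjusted p among carriers was 0.215 and 0.262. Of the 1177 carrier probe sets 0 passed, beside 0.00509% of all probe sets, with a smallest adjusted p of 0.440.

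At an unadjusted p below 0.05 there were 8 carriers by the mean, or 8.16% against 14.1% of all genes. Of these 3 were higher in the knockout, where 7.95% of all genes were, and 5 lower, where 6.12% were. By the brightest probe set there were 11, or 11.2% against 9.61% of all genes, with 2 higher (3.71% of all genes) and 9 lower (5.9%). The carriers thus lay below the share of all genes by the mean and slightly above it by the brightest probe set. Of single carrier probe sets 111 had such a p, or 9.43% against 7.69% of all probe sets, with 41 higher (4.75% of all) and 70 lower (2.94%). Knockout values beyond all control values were found for 18 carriers by the mean, or 18.4% against 20.2% of all genes, with 10 above (11.3% of all) and 8 below (8.85%). By the brightest probe set there were 15, or 15.3% against 14.6%, with 4 above (6.2%) and 11 below (8.37%). Among the carrier probe sets there were 156, or 13.3% against 13.5%, with 66 above (7.94%) and 90 below (5.52%). Summed over both directions, the shares without overlap were close to those of all features in each reading. The directions were split differently. More carrier probe sets lay below than above, 90 against 66, where more of all probe sets lay above. By the brightest probe set more lay below in carriers and in all genes, and by the mean more lay above in each. At a raw p below 0.05 more carriers were lower than higher in every reading. All genes by the mean and all probe sets leaned higher there. No test was made of these counts.

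Differences were small in size. By the mean they ran from -0.41 to 0.29 on the log2 scale, so that no carrier differed in signal by more than 1.33-fold. For 96 of 98 the 95% interval of the difference excluded a 1.5-fold change of signal in either direction. The exceptions were *Slc11a1* and *Slc47a1*. The 30 carriers not above background by the mean are counted here, and their intervals cannot exclude such a change of the transcript. By the brightest probe set, which rests on fewer measurements, 83 of 98 intervals excluded 1.5-fold. Slightly more carriers were lower than higher in the knockout, 60 against 38 by the mean with a median log2 difference of -0.027, where 51.4% of all genes were lower with a median of -0.004. By the brightest probe set 61 were lower, or 62.2% against 56.7% of all genes, and 35 higher. The median there was -0.05 against -0.02 for all genes. Leaving out 1 array at a time moved the median to as little as -0.017 by the mean, without control 3, and -0.034 by the brightest probe set, without knockout 2. Without knockout 2 the count of lower carriers by the mean was 54. Other settings moved the medians away from 0. After median centring the median by the mean was -0.047, with 63 carriers lower, where that of all genes was -0.024. After quantile normalization the median by the brightest probe set was -0.08, with 69 lower, where that of all genes was -0.039. No test was made of these medians. With the median in place of the mean of a gene's probe sets, 50 of 98 were lower, with a median of -0.007.

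**Figure D1:**
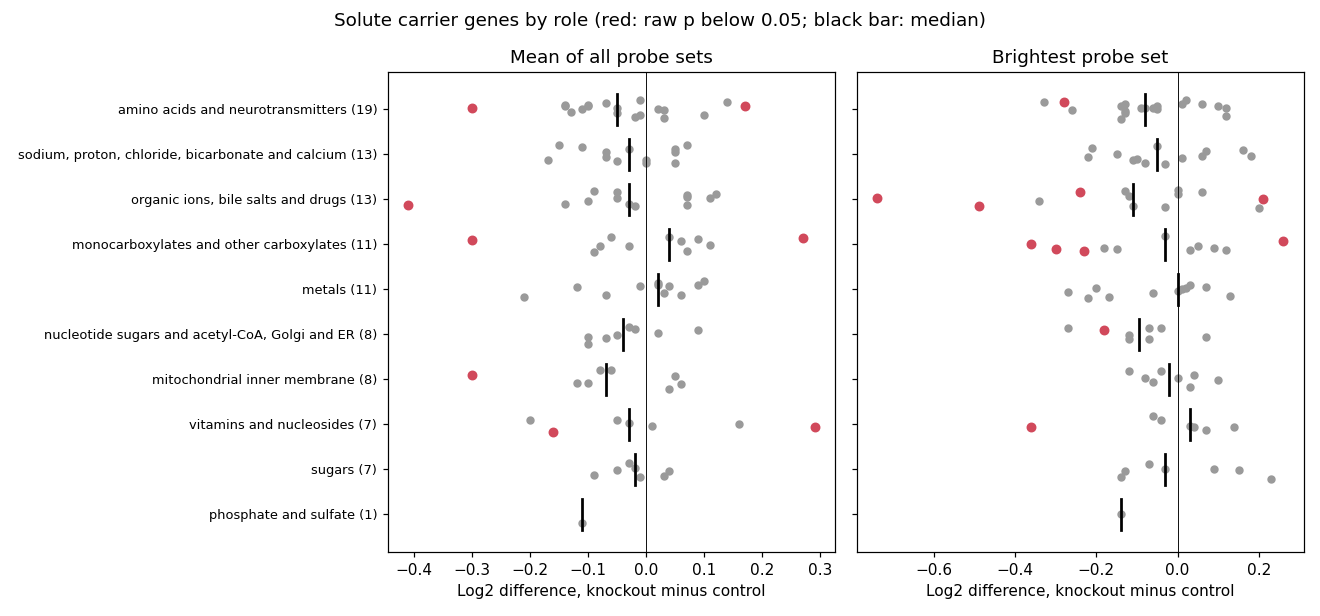
Log2 difference (knockout minus control) of each of the 98 carriers, grouped by role with the number of genes in brackets, by the mean of all probe sets (left) and the brightest probe set (right); red points have a raw p below 0.05, black bars are medians, and vertical jitter only separates points. In roles with more than 1 gene the medians lie between -0.07 and 0.04 by the mean. By the brightest probe set they lie between -0.11 and 0.03. By the mean no role holds more than 2 red points. By the brightest probe set 4 of 11 carboxylate carriers (36.4%) and 4 of 13 organic ion carriers (30.8%) are red, against 9.61% of all genes. Every other role holds at most 1 there, and no test was made of these counts.

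The carriers of carboxylates held the members with the smallest p on either side. *Slc13a5* encodes the sodium-coupled citrate carrier of the plasma membrane, which brings citrate from the blood and extracellular fluid into liver cells and neurons. Its gene mean was 7.0, 6.96 and 6.94 in controls 1 to 3 and 7.20, 7.26 and 7.25 in knockouts 1 to 3. Every knockout array lay above every control array, with a gap several times the spread within either group. The log2 difference was 0.27 (SE 0.05), or 1.2-fold, with group values of 6.97 ± 0.03 and 7.24 ± 0.04 (SD, n = 3), and it ranked number 7 by raw p among all 5017 genes, yet its limma adjusted p was 0.215. The difference was spread along the gene: 12 of its 13 probe sets had higher signal in the knockouts, and their differences ran from -0.10 to 0.48 around a median of 0.25. At its brightest probe set, 10388170, the 3 controls were at 7.99, 7.85 and 8.04 and the 3 knockouts at 8.24, 8.18 and 8.24, which puts the knockouts higher by 0.26 (SE 0.07, limma adjusted p = 0.449). The values of the related *Slc13a2*, a dicarboxylate carrier of kidney and gut that was not above background by the mean, differed by 0.06 (SE 0.05).

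*Slc16a9* encodes a member of the monocarboxylate carrier family, known for the transport of carnitine and linked to urate. It pointed the other way. By the mean the controls were at 6.43, 6.58 and 6.63 and the knockouts at 6.2, 6.24 and 6.30. The groups did not overlap, and the control arrays were more spread than the knockouts. The log2 difference was -0.30 (SE 0.06), or 1.23-fold lower, with a limma adjusted p of 0.215. All 8 of its probe sets were lower, 5 of them with a raw p below 0.05, and the smallest difference, -0.06, was at probe set 10369834, the only probe set whose ID lies apart from the others and which read 2.61 to 2.77 on the 6 arrays, below the background level. At the brightest probe set, 10363865, the controls were at 7.86, 7.96 and 7.94 and the knockouts at 7.56, 7.56 and 7.55, so the knockout arrays had an SD of 0.01 (n = 3) and the log2 difference was -0.36 (SE 0.05, limma adjusted p = 0.262). *Slc13a5*, *Slc16a9* and *Slc47a1*, described below with the organic ion carriers, were the 3 carriers with a raw p below 0.05 in both readings. The brightest probe set is itself part of the mean, so the readings are not independent. The share of all genes with such a p in both was not counted.

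The other 8 members of family Slc16 were not alike. By the mean, 4 of 9 Slc16 genes were higher and 5 lower, with differences from -0.30 to 0.11. At the brightest probe set 3 were higher and 6 lower, with a median of -0.15, and 8 were lower without knockout 2. There 3 of 9 (33.3%), all lower, had a raw p below 0.05, where 5.9% of all genes were lower with such a p. No test was made of these counts. *Slc16a7*, a high-affinity lactate and pyruvate carrier of neurons, differed by 0.07 (SE 0.06, 95% interval -0.07 to 0.21) and *Slc16a10*, the carrier of aromatic amino acids and thyroid hormone, by -0.08 (SE 0.07, interval -0.25 to 0.09). Neither interval leaves room for a 1.5-fold difference. At the brightest probe set *Slc16a3*, a lactate exporter of glycolytic cells, was at -0.23 and *Slc16a5* at -0.30, but their means were at -0.06 and -0.03, and *Slc16a5* was not above background in either reading. *Bsg*, the chaperone that carries Slc16 proteins to the cell surface, differed by -0.01 (SE 0.05), and *Emb*, its relative that serves the same role, by 0.03 (SE 0.07).

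**Figure D2:**
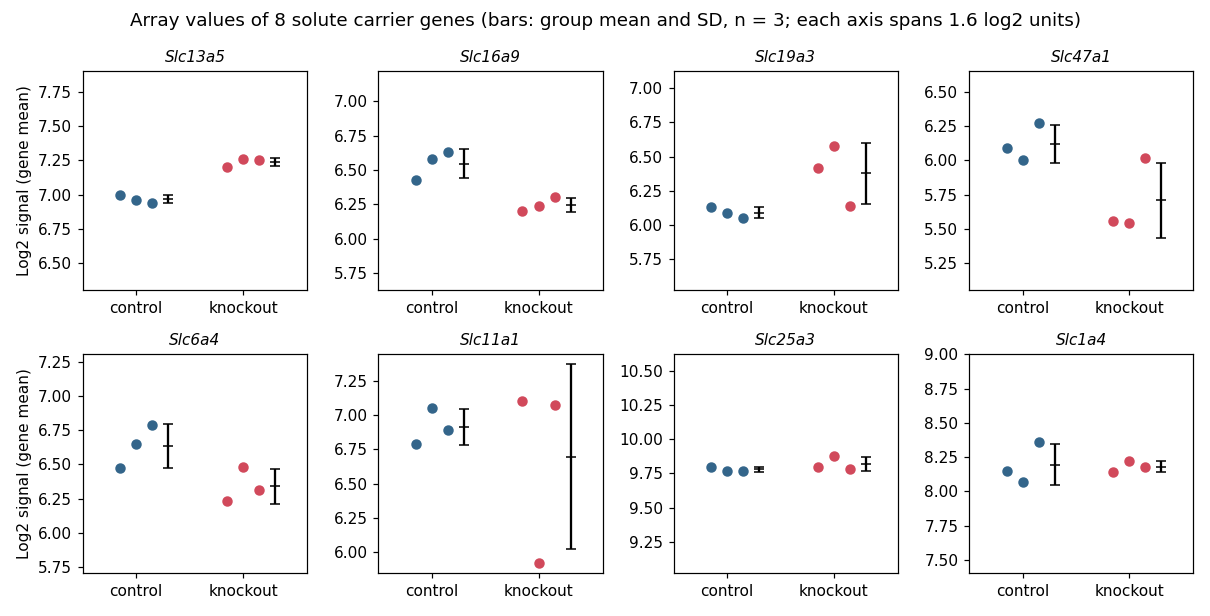
Gene mean log2 signal on each of the 6 arrays for 8 carriers (points, in the order of replicate numbers), with the mean and SD of each group (n = 3) as black bars; every vertical axis spans 1.6 log2 units. The groups do not overlap for Slc13a5, Slc16a9 and Slc19a3, Slc11a1 has 1 knockout array at 5.92 with the others at 7.10 and 7.07, and Slc25a3 and Slc1a4 show groups that lie on top of each other.

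Carriers of amino acids and transmitters made up the most numerous role, with 13 of 19 lower by the mean and a median of -0.05. All 5 measured members of family Slc6 were lower by the mean, from -0.30 to -0.05, also after quantile normalization and median centring, and 4 of 5 at the brightest probe set, a count of few genes for which no test was made. Of these *Slc6a18* and *Slc6a19*, amino acid carriers of kidney and gut, were not above background by the mean. *Slc6a4*, the serotonin carrier that ends serotonin signalling and whose mRNA is made in the raphe nuclei, was at 6.47, 6.65 and 6.79 in controls and 6.23, 6.48 and 6.31 in knockouts. Knockout 2 just overlapped control 1. The log2 difference was -0.30 (SE 0.09), with a limma adjusted p of 0.252. Of its 16 probe sets 15 were lower, 6 with a raw p below 0.05, but the brightest, 10378817, read -0.08 (SE 0.10).

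Another gene of the same neurons varied with it. *Tph2*, the enzyme that makes serotonin in neurons, was at 6.71, 6.93 and 6.99 in controls and 6.35, 6.59 and 6.49 in knockouts, a difference of -0.40 (SE 0.09, limma adjusted p = 0.215). In each of *Slc6a4* and *Tph2* knockout 1 was the lowest array, knockout 3 the next and control 3 the highest. *Ddc*, the decarboxylase shared by serotonin and dopamine neurons, differed by -0.05 (SE 0.06), and *Slc6a3*, the dopamine carrier of the midbrain, was at 8.15, 8.22 and 8.06 in controls and 8.12, 7.98 and 8.0 in knockouts, a difference of -0.11 (SE 0.06). Of the 10 genes listed for midbrain monoamine neurons these 4 were measured, *Slc6a4* and *Slc6a3* among them. Their mean signal, which thus holds the carriers' own values, was 7.03 to 7.20 in controls and 6.88 to 6.96 in knockouts. In whole tissue, fewer cells of a type and less RNA per cell cannot be told apart, and the part of monoamine neurons in the values of *Slc6a4* was not tested.

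Other transmitter and amino acid carriers differed less by the mean. *Slc1a6*, the glutamate carrier of cerebellar Purkinje cells, was at 8.12, 8.15 and 8.30 in controls and 7.85, 7.97 and 7.90 in knockouts at its brightest probe set, a difference of -0.28 (SE 0.07, limma adjusted p = 0.449), and at -0.14 (SE 0.07) by the mean. In both readings the knockouts lay below all controls. *Slc1a4*, which exchanges serine and alanine and supplies neurons with serine from astrocytes, differed by -0.01 (SE 0.08, interval -0.19 to 0.17). *Slc6a15*, a sodium-coupled carrier of branched-chain amino acids and proline in neurons, differed by -0.05 (SE 0.06). *Slc17a8*, the vesicular glutamate carrier of scattered serotonin, cholinergic and interneurons, differed by -0.07 (SE 0.08) by the mean and 0.12 (SE 0.18) at the brightest probe set. *Slc38a6*, an orphan member of the glutamine carrier family, was on the higher side, with 5.70, 5.73 and 5.65 in controls and 5.90, 5.87 and 5.80 in knockouts, a difference of 0.17 (SE 0.05, limma adjusted p = 0.250). Its 18 probe sets were higher in 16 cases, but the largest value, 1.00, was at a dim probe set and the brightest read 0.01 (SE 0.15). *Slc17a1* was higher by 0.14 (SE 0.07) by the mean, with all knockouts above the controls, but was not above background. Its brightest probe set read 0.06 (SE 0.10).

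The vitamin carriers of family Slc19 showed opposite signs. *Slc19a3*, the thiamine carrier of vessel walls and pericytes whose loss causes basal ganglia disease, was at 6.13, 6.09 and 6.05 in controls and 6.42, 6.58 and 6.14 in knockouts. All 3 knockouts lay above the controls, knockout 3 by no more than the controls' own spread. The difference was 0.29 (SE 0.10, limma adjusted p = 0.282), 0.19 without knockout 2, and all 8 of its probe sets were higher, by 0.14 to 0.57. The brightest of them read 0.14 (SE 0.14), with overlapping groups, and 0.0 without knockout 2. *Slc19a2*, the other thiamine carrier, was at 7.06, 7.07 and 7.14 in controls and 6.91, 6.82 and 7.04 in knockouts, a difference of -0.16 (SE 0.06, limma adjusted p = 0.326), with -0.04 (SE 0.07) at its brightest probe set. *Slc19a1*, the reduced folate carrier, differed by -0.05 (SE 0.06) and *Slc46a1*, the proton-coupled folate carrier of choroid plexus and gut, by -0.20 (SE 0.10), with values of 7.18, 7.05 and 7.43 in controls and 7.03, 6.91 and 7.10 in knockouts. The brightest probe set of *Slc46a1* was at -0.36 (SE 0.09, limma adjusted p = 0.449), with no overlap of the groups. Leaving out 1 array moved its gene mean difference to between -0.29, without control 2, and -0.10, without control 3. Of 15 genes listed for choroid plexus and ependyma 4 were measured, with a mean signal of 6.80 to 6.86 in controls and 6.86 to 6.98 in knockouts. Among them *Kcnj13*, a potassium channel, differed by 0.21 (SE 0.07) and *F5*, coagulation factor V, by 0.21 (SE 0.05), on the opposite side from *Slc46a1*. At its brightest probe set *F5* differed by 0.04 (SE 0.11). The others, *Foxj1* and *Sostdc1*, were at -0.06 (SE 0.05) and -0.01 (SE 0.07) by the mean. The part of choroid plexus in the values of *Slc46a1* was not tested. *Slc29a3*, the nucleoside carrier of lysosomes, differed by -0.03 (SE 0.07).

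**Figure D3:**
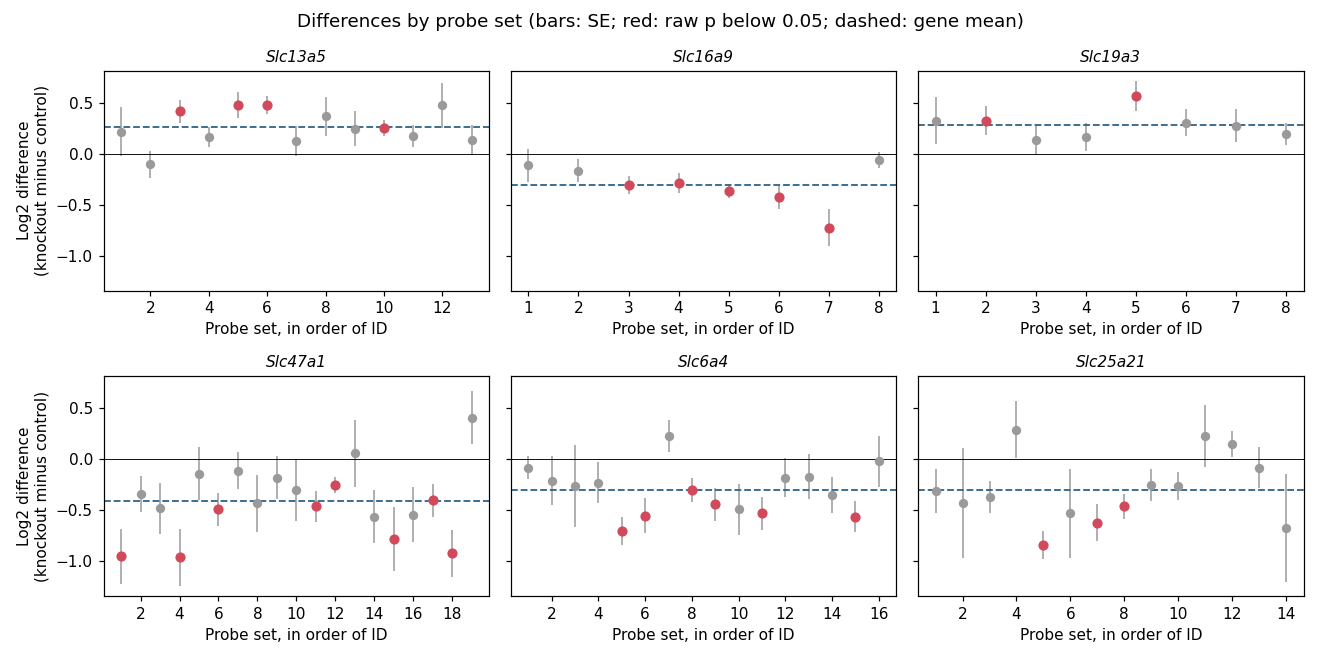
Log2 difference (knockout minus control) of every probe set of 6 carriers, in the order of probe set IDs, with the SE of the fit as bars, red where the raw p is below 0.05, and the gene mean as a dashed line. Slc13a5 is above 0 at 12 of 13 probe sets and Slc19a3 at 8 of 8, Slc16a9 is below 0 at 8 of 8, and Slc47a1, Slc6a4 and Slc25a21 are below 0 at most probe sets with wide scatter.

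Among carriers of organic ions, bile salts and drugs, *Slc47a1* had the largest difference by the mean. It encodes a proton exchanger that extrudes organic cations and is found in brain mainly in the meninges. Its controls were at 6.09, 6.0 and 6.27 and its knockouts at 5.56, 5.54 and 6.02. Knockouts 1 and 2 lay well below the controls, and knockout 3 overlapped them. The difference was -0.41 (SE 0.13, 95% interval -0.72 to -0.10), or 1.33-fold lower, with a limma adjusted p of 0.258, and 17 of 19 probe sets were lower. At the brightest probe set, 10386689, the controls were at 7.73, 7.67 and 8.09 and the knockouts at 7.22, 7.20 and 7.59, a difference of -0.49 (SE 0.15, limma adjusted p = 0.477).

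Genes of meninges and fibroblasts were lower as well. Of the 12 listed 7 were measured, *Slc47a1* among them, and 6 of the 7 were lower by the mean. *Col1a1*, a fibrillar collagen, was at 6.98, 6.68 and 7.11 in controls and 6.58, 6.61 and 6.66 in knockouts, and *Dcn*, the proteoglycan decorin, at 9.40, 9.14 and 9.49 and at 8.99, 9.14 and 9.13. Their differences were -0.30 (SE 0.10) and -0.25 (SE 0.09). The gene of osteoglycin, *Ogn*, was the exception at 0.18 (SE 0.15). The mean signal of the 7 genes, which holds the values of *Slc47a1*, was 6.71 to 6.96 in controls and 6.56 to 6.73 in knockouts, so the ranges overlapped. At the brightest probe sets it was 8.80 to 8.84 in controls and 8.65 to 8.78 in knockouts, without overlap. There 6 of the 7 genes were lower and 1 higher, with a median difference of -0.03, and *Col1a1* differed by -0.03. Array by array, *Slc47a1* was lowest on knockouts 1 and 2, and *Col1a1* about equally low on all 3. The other measured genes of the list except *Ogn* lay below their control mean on all 3 knockouts. The part of meningeal tissue in the values of *Slc47a1* was not tested.

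Its neighbour *Slc47a2*, a close relative of kidney, was not above background by the mean and differed by -0.02 (SE 0.05), with 0.21 (SE 0.08) at its brightest probe set. The carnitine and organic cation carriers differed in sign by the mean, with *Slc22a4*, the ergothioneine carrier, at -0.10 (SE 0.06) and *Slc22a5*, the carnitine carrier, at 0.07 (SE 0.05). At the brightest probe sets all 5 measured Slc22 genes were lower, from -0.34 to values that round to 0. This held after quantile normalization and median centring, and for 4 of 5 without knockout 2. By the mean 2 were higher and 3 lower. *Slc22a23* read -0.12 (SE 0.07) at its brightest probe set, but 11 of its 12 probe sets were higher. By the mean it was higher by 0.11 (SE 0.05, limma adjusted p = 0.397), with all knockouts above the controls. *Slc22a4*, *Slc22a5* and *Slc22a21* are close relatives, as are *Slc5a4a* with *Slc5a4b* and the Slco6 genes with each other, so their probes may share signal. *Slco6b1*, a testis member of the organic anion carriers, showed the largest difference of any brightest probe set, -0.74 (SE 0.11, limma adjusted p = 0.262), from 4.80, 4.67 and 4.87 to 4.27, 3.91 and 3.93. This probe set was not above background. Of its 15 probe sets 7 were higher and 8 lower, and the gene mean differed by -0.05 (SE 0.08). *Slco5a1*, of the same family, was higher by 0.12 (SE 0.06) by the mean, where it was not above background. Its brightest probe set read 0.20 (SE 0.11).

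**Figure D4:**
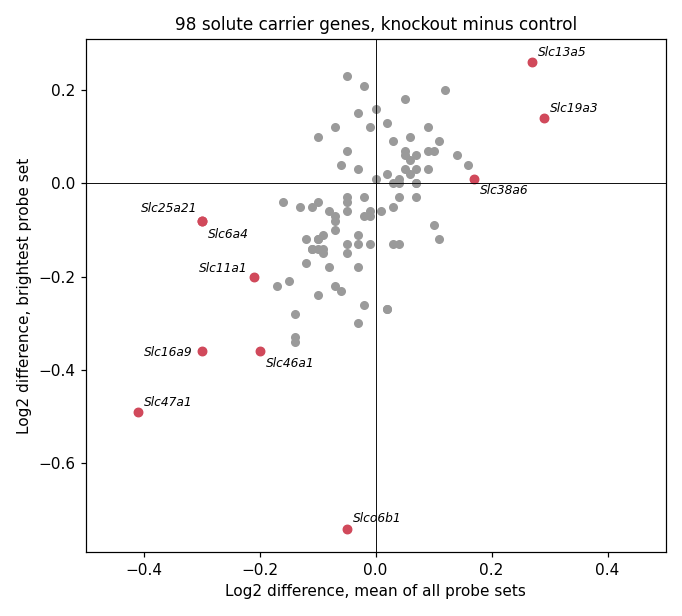
Log2 difference of each of the 98 carriers by the mean of all probe sets (horizontal) and by the brightest probe set (vertical), with 10 genes named in red. Signs agree for 73 carriers and oppose for 25, Slc13a5, Slc16a9 and Slc47a1 stand away from 0 on both axes, and Slco6b1 does so only on the vertical axis; Slc25a21 and Slc6a4 lie on the same point.

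Metal carriers were even between the genotypes. Of 11 genes 7 were higher and 4 lower by the mean, 5 and 6 after quantile normalization, with a median of 0.02. *Slc39a10*, a zinc importer of neurons, differed by 0.06 (SE 0.09), *Slc30a1*, the zinc exporter of the plasma membrane, by -0.01 (SE 0.05) over its 2 probe sets, and *Slc30a10*, the manganese exporter, by 0.10 (SE 0.05), from 7.16, 7.07 and 7.16 to 7.20, 7.22 and 7.27. *Slc40a1*, the iron exporter ferroportin, differed by -0.07 (SE 0.05, interval -0.20 to 0.05) and *Slc39a11*, a zinc carrier of intracellular membranes, by -0.12 (SE 0.05). None of these intervals reached 1.5-fold. *Slc41a1* differed by 0.02 (SE 0.05) by the mean and by 0.13 (SE 0.07) at its brightest probe set.

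*Slc11a1* was the carrier with the widest spread. It encodes the proton-coupled iron and manganese carrier of phagosomes, NRAMP1, and is made in macrophages and microglia. Its controls were at 6.79, 7.05 and 6.89, knockouts 1 and 3 at 7.10 and 7.07, and knockout 2 at 5.92, far below every other array. The difference over all arrays was -0.21 (SE 0.29, limma adjusted p = 0.772) and turned to 0.17 (SE 0.08) without knockout 2. The brightest probe set read -0.20 with that array and 0.19 without it. Both measured microglial markers were lowest on the same array. *Cd68*, the lysosomal glycoprotein of phagocytes, was at 7.71, 7.47 and 7.66 in controls and 7.54, 6.68 and 7.39 in knockouts, and *Ptprc*, the leukocyte antigen CD45, at 5.63, 5.67 and 5.72 and at 5.82, 5.06 and 5.63. Only these 2 of 12 microglial markers were measured. Their mean signal was 6.57 to 6.69 in controls, 5.87 on knockout 2 and 6.68 and 6.51 on the other knockouts, and *Ptprc* on knockout 2 was at the background level. The part of microglia in the values of *Slc11a1* was not tested.

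**Figure D5:**
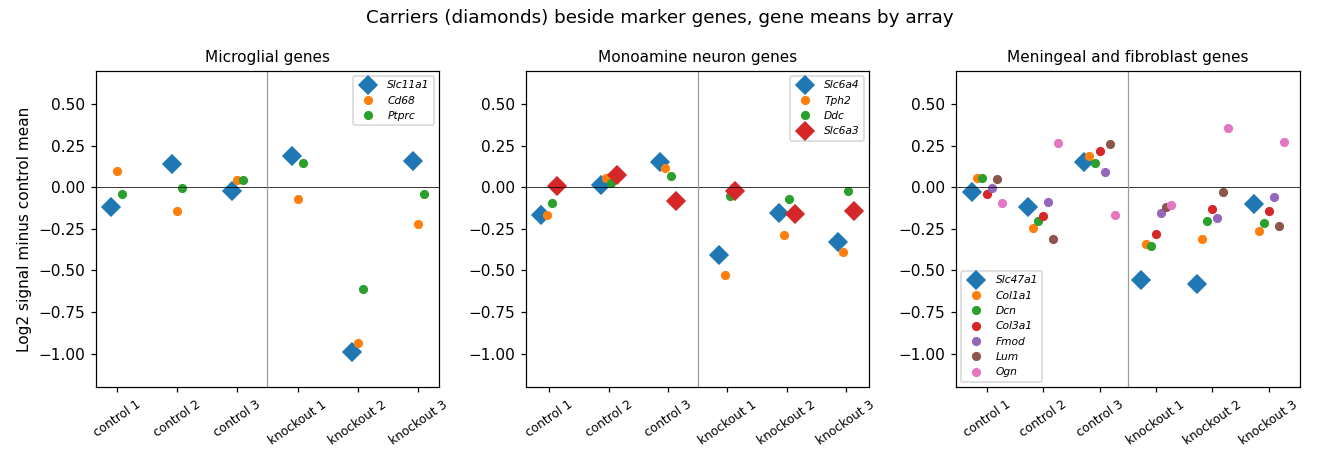
Gene mean log2 signal of each array minus the mean of the 3 controls, for carriers (diamonds) and marker genes (circles) of microglia, monoamine neurons and meninges. Slc11a1, Cd68 and Ptprc share their low point on knockout 2, Slc6a4 and Tph2 are lowest on knockout 1, and Slc47a1 is low on knockouts 1 and 2 while the other fibroblast genes except Ogn are below the control mean on all 3 knockouts.

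Among ion exchangers 9 of 13 genes were lower by the mean, 7 of 13 without knockout 2, with differences from -0.17 to 0.07. Of these 0 had a raw p below 0.05, beside the 14.1% of all genes. *Slc4a3*, the anion exchanger of neurons, differed by 0.05 (SE 0.06), *Slc8a3*, a sodium-calcium exchanger, by 0.05 (SE 0.07) and *Slc24a4*, a potassium-dependent sodium-calcium exchanger named in Alzheimer genetics, by -0.05 (SE 0.07, interval -0.21 to 0.10). At its brightest probe set *Slc24a4* was at -0.15 (SE 0.07), with 10.86, 10.79 and 10.87 in controls and 10.75, 10.58 and 10.74 in knockouts, without overlap. The chloride-iodide exchanger gene *Slc26a4*, not above background by the mean, was at -0.15 (SE 0.09). *Slc9a3*, a sodium-proton exchanger, read 0.16 (SE 0.08) at its brightest probe set, with overlapping groups. By the mean it was at -0.00 (SE 0.05) and not above background.

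In the mitochondrial family Slc25, 5 of 8 genes were lower and 3 higher by the mean. *Slc25a3*, the phosphate carrier that feeds ATP synthesis, was at 9.80, 9.77 and 9.77 in controls and 9.80, 9.88 and 9.78 in knockouts, a difference of 0.04 (SE 0.05, interval -0.07 to 0.15). *Slc25a21*, the oxodicarboxylate carrier of lysine breakdown, had the smallest p of the family, with 4.60, 4.59 and 4.34 in controls and 4.2, 4.29 and 4.14 in knockouts and a difference of -0.30 (SE 0.08, limma adjusted p = 0.230). The groups did not overlap, but the gene was not above background by the mean, and its brightest probe set was at 6.19, 6.16 and 5.91 in controls and 5.77, 6.43 and 5.81 in knockouts, a difference of -0.08 (SE 0.19). *Mpc1*, a subunit of the mitochondrial pyruvate carrier, which belongs to another family, differed by -0.01 (SE 0.05), and *Mcu*, the pore of the mitochondrial calcium uniporter, by 0.11 (SE 0.06).

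Sugar carriers and the nucleotide sugar carriers of the Golgi held 0 genes with a raw p below 0.05 by the mean, beside the 14.1% of all genes. The brightest probe set of *Slc35b3*, which brings the sulfate donor PAPS into the Golgi, was at 8.08, 8.07 and 8.17 in controls and 7.91, 7.97 and 7.89 in knockouts. The groups did not overlap, and the difference was -0.18 (SE 0.06, limma adjusted p = 0.487). *Slc2a4*, the insulin-responsive glucose carrier GLUT4, differed by -0.03 (SE 0.06, interval -0.17 to 0.12) and *Slc2a12*, a relative of it, by -0.09 (SE 0.06). Of 8 Slc35 genes 6 were lower by the mean and 7 at the brightest probe set, with medians of -0.04 and -0.09. *Slc35f1*, an orphan member made in neurons, was higher on all 3 knockouts, at 9.66, 9.62 and 9.54 against 9.52, 9.49 and 9.53 in controls, a difference of 0.09 (SE 0.05).

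The pumps and partners on which carriers depend gave 0 of 12 genes past the threshold, of 44 listed, with 5 higher and 7 lower by the mean and a median of -0.01. The sodium pump subunits that maintain the gradient for sodium-coupled carriers differed by 0.05 (SE 0.04) for *Atp1b1* and 0.11 (SE 0.06) for *Atp1b2*. *Kcnj10*, the potassium channel of astrocytes that sets the membrane potential under which glutamate uptake runs, had the smallest p of the list. It was at 9.78, 9.76 and 9.84 in controls and 9.62, 9.47 and 9.51 in knockouts, a difference of -0.26 (SE 0.06, limma adjusted p = 0.215), without overlap. Of the 7 measured astrocyte markers, *Kcnj10* among them, 5 were lower by the mean and 4 at the brightest probe set. By the mean *Gfap* was at -0.48 (SE 0.25), with overlapping groups, *S100b* at -0.21 (SE 0.07) and *Gja1* at -0.15 (SE 0.05). *Aldoc*, *Glul* and *Sox9* were at -0.02, 0.02 and 0.04 (SE 0.05 each). The mean signal of the 7 was 9.94 to 10.08 in controls and 9.80 to 9.94 in knockouts. The part of astrocytes in the values of the carriers was not tested. *Abcc3*, a relative of *Abcc1* on the same list, was at 5.29, 5.59 and 5.47 in controls and 5.50, 5.18 and 5.50 in knockouts, a difference of -0.05 (SE 0.11).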

How the data were processed

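Log2 signals of 6 arrays were used as deposited by the authors. The submitters' processing notes name MAS5 without a version, and the common scale and genome build are not given in the sources used here. Of 65535 features, 6616 whose IDs precede every annotated probe set were treated as controls and dropped, leaving 58919, of which 53644 had 1 gene symbol, 877 several and 4398 none. RefSeq (GRCm38.p6) held 4321 of the 5032 symbols as current names and 698 as older synonyms, which were replaced, and 13 stayed as given. Array medians ran from 7.04 to 7.09, so signals were not normalized again. A further 9 probe sets that name a carrier beside another gene were left out.

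Knockout minus control was fitted over all genes (means and brightest probe sets) and over all probe sets with limma 3.58.1 (R 4.3.3, lmFit and eBayes), two-sided, with Benjamini-Hochberg adjustment and a threshold of 0.05. The fit was tested on simulated data with independent noise, which cannot show whether the spread of these arrays is technical. No result here rests on that test. Precision is limited by the number of arrays, 3 per group, with which the smallest p of a two-sided exact permutation test is 0.1. Same-numbered arrays did not deviate together (correlations 0.021, -0.080 and -0.057), so no block was used.

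Named genes were those past the threshold, the 6 per direction with the smallest raw p by the mean and 4 by the brightest probe set, the genes of the 5 probe sets with the smallest raw p, 22 carriers known in brain, and 1 per role. They, the members and the lists were chosen with earlier results of these data known. Genes outside this rule are named as members of a list, or as examples chosen after their values were seen. Alternatives covered normalization, filters on dim features, the variance model, array weights, a replicate block, each array left out, the median of probe sets and the threshold.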

Additional observations from a re-analysis of the deposited data

How the results depend on the processing

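At an adjusted p below 0.05, 0 carriers passed by the mean, by the brightest probe set and by single probe sets under every alternative run, and 0 at 0.1 in the fits that the report gives. The smallest adjusted p of a carrier was 0.0878, for *Slc13a5* by the mean with trend and robust moderation, which lies under 0.1. With the replicate block 0 carriers passed by the mean (smallest adjusted p 0.311), 0 by the brightest probe set (0.544) and 0 by single probe sets (0.72), and the 3 calls among all probe sets became 0. Of 1158 recomputed differences of named carriers, 1097 kept their sign and 61 turned, 41 of them without 1 array. By the mean without *Slc11a1*'s lowest array, knockout 2, its difference was 0.17.

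Differences by the mean that turned were, after quantile normalization, *Slc41a1* at -0.01, with array weights, *Slc29a3* at 0.02, *Slc30a1* at 0.02, *Slc47a2* at 0.01 and *Slc9a3* at 0.01, and with the median of probe sets, *Slc16a10* at 0.06, *Slc17a3* at 0.01, *Slc1a4* at 0.06, *Slc22a5* at -0.00, *Slc25a3* at -0.04, *Slc26a4* at 0.05, *Slc47a2* at 0.12, *Slc9a3* at 0.04 and *Slco6b1* at 0.08. At the brightest probe set, quantile normalization put *Slc16a7* at -0.01, *Slc29a3* at -0.01, *Slc38a6* at -0.02 and *Slc39a10* at -0.01, and median centring put *Slc38a6* at -0.01 and *Slc39a10* at -0.00. The cause was not tested.

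Leaving out each array in turn, the differences by the mean that turned ranged from -0.42 to 0.17 for *Slc11a1*, -0.09 to 0.0 for *Slc17a3*, -0.12 to 0.01 for *Slc17a8*, -0.07 to 0.07 for *Slc1a4*, -0.11 to 0.0 for *Slc24a4*, -0.1 to 0.04 for *Slc29a3*, -0.07 to 0.02 for *Slc2a4*, -0.04 to 0.02 for *Slc30a1*, -0.02 to 0.14 for *Slc39a10*, -0.06 to 0.01 for *Slc47a2* and -0.02 to 0.02 for *Slc9a3*. At the brightest probe set they ranged from -0.41 to 0.19 for *Slc11a1*, -0.02 to 0.11 for *Slc16a7*, -0.02 to 0.12 for *Slc17a1*, -0.2 to 0.01 for *Slc17a3*, -0.05 to 0.3 for *Slc17a8*, -0.08 to 0.01 for *Slc19a2*, -0.06 to 0.03 for *Slc22a5*, -0.07 to 0.12 for *Slc23a3*, -0.3 to 0.03 for *Slc25a21*, -0.02 to 0.02 for *Slc25a3*, -0.06 to 0.12 for *Slc29a3*, -0.01 to 0.11 for *Slc30a10*, -0.15 to 0.12 for *Slc38a6*, -0.03 to 0.05 for *Slc39a10* and -0.02 to 0.14 for *Slc8a3*. The cause was not tested.

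Signal over background limits the 30 carriers not above the olfactory receptor level by the mean.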

Other observations

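Probe sets that name a carrier beside another gene were read apart from the members. Of these 9, the only one with a raw p below 0.05 was 10386767, which names *Slc5a10* and *Fam83g*. It was at 4.26, 3.95 and 4.07 in controls and 3.58, 3.33 and 3.94 in knockouts, with -0.48 as the log2 difference (SE 0.17, limma adjusted p = 0.621). The groups did not overlap, and the signal lay below the background level. The other 8 ranged from -0.40, at 10386768 of the same pair of genes, to 0.03 at a probe set that names *Slc25a5*, the adenine nucleotide carrier of mitochondria.

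A further 6 genes carry an Slc name only after updating, of which *Slc38a9* is left out by the rule. Of the other 5, *Slc18b1*, a vesicular polyamine carrier, was at 8.27, 8.12 and 8.16 in controls and 8.13, 8.03 and 8.18 in knockouts, with a difference of -0.07 (SE 0.06). *Slc6a19os*, a transcript named as the opposite strand of *Slc6a19* and no carrier, was at 0.14 (SE 0.05, limma adjusted p = 0.311), the knockouts lying above the controls, while *Slc6a19* itself was at -0.14 (SE 0.09). Neither was above the background level.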
